A study of Mus musculus with 10 samples.

Results

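To describe the combined effect of LPS and skatole on the genomic occupancy of p65, 3 peak lists from RAW264.7 macrophages given LPS+Skatole were compared with 3 lists from cells given the solvent DMSO. Regions were built from the peaks of all 9 lists of the series on chromosomes 1 to 19, X and Y, after each list had been cut to its 37551 strongest peaks, the length of the shortest list. Of the 89996 regions with a peak in at least 1 of the 6 lists, 1972 (2.19%) were called in 3 of 3 LPS+Skatole lists and 0 of 3 DMSO lists and are named gained here. Another 309 regions (0.343%) showed the opposite pattern and are named lost, and 12581 regions were called in all 6 lists and are named shared. RAW264.7 is an immortal mouse line with macrophage properties, established from an Abelson virus tumour of a male animal, and the genotype was labelled WT in every group. Cells were treated for 12 h with DMSO or with LPS and skatole, and each CUT&Tag library was made from 200000 cells of this single line. The doses used in this experiment were not given in the sources used here. The labels name a p65 antibody and the methods an antibody against phosphorylated p65, so the form captured cannot be told apart. The series also holds 3 lists from cells given DMSO and LPS, called LPS here, and 1 Blank library, for which no primary antibody was used and which is not analysed here. The libraries were numbered 1 to 3, but nothing stated that they came from separate cultures, so p-values measure only the spread between these samples.

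p65 (RelA) is the main activating subunit of NF-κB. In resting macrophages inhibitory IκB proteins hold it in the cytoplasm. LPS, a component of the bacterial outer membrane, signals through Toll-like receptor 4 and the IκB kinases, which lead to the destruction of IκB and let p65 enter the nucleus and bind κB motifs in promoters and enhancers of cytokine genes and of genes for its own inhibitors. Skatole is a product of tryptophan breakdown by gut bacteria, and the study used it as a compound that alters macrophage polarization. CUT&Tag tethers a DNA-cutting transposase to an antibody on chromatin, and sites where many fragments are cut out appear as peaks. A peak at a gene shows occupancy near it, not expression of the gene.

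The promoters of 4 genes at gained or rising regions and of 3 histone genes at lost or falling regions are shown here, because they hold the motifs described below. They were read from RefSeq (GRCm38.p6) as 250 bases before to 50 bases after the gene start, on the strand of the gene. In the first 4, capitals mark matches to the κB consensus or to the AP-1 motif TGANTCA. In Il6, the gene of an inflammatory cytokine (chr5:30012864-30013163, plus strand), the κB match begins at position −44 from the start and the AP-1 match at −249. In Isg20, which encodes an interferon-induced exonuclease (chr7:78913515-78913814, plus strand), the κB match begins at −109. Srxn1, the gene of sulfiredoxin, which repairs oxidized peroxiredoxins (chr2:152105274-152105573, plus strand), holds AP-1 matches from −102 and −45. Olr1, the gene of a receptor for oxidized lipoprotein (chr6:129507116-129507415, minus strand), holds one from −60. Its region (chr6:129506757-129507719) was gained, with 54, 26 and 33 fragments at the summit in LPS+Skatole libraries 1 to 3, and no LPS list of equal length had a peak there.
Il6: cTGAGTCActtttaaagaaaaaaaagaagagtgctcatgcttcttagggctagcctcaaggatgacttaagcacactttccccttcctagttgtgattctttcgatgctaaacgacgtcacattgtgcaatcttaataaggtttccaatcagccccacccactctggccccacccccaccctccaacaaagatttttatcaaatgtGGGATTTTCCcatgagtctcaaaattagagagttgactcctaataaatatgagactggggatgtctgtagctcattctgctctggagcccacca
Isg20: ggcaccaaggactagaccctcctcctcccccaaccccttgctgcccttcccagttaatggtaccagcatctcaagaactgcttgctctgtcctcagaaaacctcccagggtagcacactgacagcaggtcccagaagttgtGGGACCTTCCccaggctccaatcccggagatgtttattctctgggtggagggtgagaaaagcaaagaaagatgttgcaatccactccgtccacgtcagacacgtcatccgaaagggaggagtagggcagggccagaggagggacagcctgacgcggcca
Srxn1: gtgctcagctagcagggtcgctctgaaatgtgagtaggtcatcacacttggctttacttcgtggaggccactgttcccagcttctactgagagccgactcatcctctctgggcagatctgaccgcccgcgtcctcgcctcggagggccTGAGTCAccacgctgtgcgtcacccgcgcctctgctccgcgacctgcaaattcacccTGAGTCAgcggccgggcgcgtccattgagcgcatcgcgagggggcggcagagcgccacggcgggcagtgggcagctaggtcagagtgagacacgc
Olr1: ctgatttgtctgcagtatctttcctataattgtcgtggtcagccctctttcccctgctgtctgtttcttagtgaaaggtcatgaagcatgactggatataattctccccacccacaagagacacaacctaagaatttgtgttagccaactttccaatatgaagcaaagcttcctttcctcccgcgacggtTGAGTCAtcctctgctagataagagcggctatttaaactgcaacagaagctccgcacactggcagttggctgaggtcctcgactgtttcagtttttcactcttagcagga

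In the histone promoters capitals mark CCAAT or its reverse complement ATTGG, a motif common in promoters of replication-dependent histone genes. H3c4 (chr13:23575513-23575812, plus strand) holds 3 matches, H2bc12 (chr13:22035571-22035870, plus strand) 3 and H3c6 (chr13:23562336-23562635, minus strand) 4.
H3c4: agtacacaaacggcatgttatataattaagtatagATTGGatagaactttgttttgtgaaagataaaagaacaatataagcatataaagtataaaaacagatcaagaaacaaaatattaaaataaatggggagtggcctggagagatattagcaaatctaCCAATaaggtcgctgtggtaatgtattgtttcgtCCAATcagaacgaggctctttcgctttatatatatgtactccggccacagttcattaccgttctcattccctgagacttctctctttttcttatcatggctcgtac
H2bc12: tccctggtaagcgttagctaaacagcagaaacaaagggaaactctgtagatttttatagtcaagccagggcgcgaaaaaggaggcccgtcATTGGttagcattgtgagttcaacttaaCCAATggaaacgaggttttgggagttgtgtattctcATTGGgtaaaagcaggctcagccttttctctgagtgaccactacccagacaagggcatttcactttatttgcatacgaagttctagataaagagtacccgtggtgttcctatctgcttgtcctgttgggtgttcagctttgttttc
H3c6: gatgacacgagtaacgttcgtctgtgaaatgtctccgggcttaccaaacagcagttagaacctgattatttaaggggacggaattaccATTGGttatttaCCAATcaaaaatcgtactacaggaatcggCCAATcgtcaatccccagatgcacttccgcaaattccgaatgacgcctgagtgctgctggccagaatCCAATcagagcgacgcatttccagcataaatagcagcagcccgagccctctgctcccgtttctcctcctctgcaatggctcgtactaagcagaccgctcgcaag

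The whole lists held 78982 ± 1047 peaks (SD, n = 3) in LPS+Skatole and 40651 ± 2961 in DMSO libraries, a ratio of 1.94 with no overlap (exact two-sided permutation test, p = 0.1, the smallest p that 3 against 3 libraries allow). Depth was read from the genome background of each list, in fragments per position, and was 2.33 ± 0.0656 against 1.28 ± 0.169, so the LPS+Skatole libraries were 1.82 times deeper on this measure (exact permutation test, p = 0.1). The weakest peak kept after the cut had a −log10 p of 14.9 to 15.2 in LPS+Skatole and 5 to 6.55 in DMSO lists. Equal length therefore compares the order of peaks within a library, and a region missing from a cut list can still hold a weaker peak in the whole list. Depth and treatment cannot be told apart in these groups. Of 10 macrophage marker genes, 9 had a peak in all 6 lists, and the other, Lyz2, had one in 5. Of 20 markers of other cell types, 4 to 7 per library had a peak and 2 (Pecam1 and Gfap) had one in all 6, while Cd3e, Cd8a, Gata1, Hbb-bs and 6 others had none. Since each library pools cells, occupancy in more cells and more occupancy per cell could not be told apart.

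Gained regions lay away from gene ends, while lost regions lay close to them. Of the gained regions 260 (13.2%) had their middle summit within 3 kb of either end of a protein-coding gene, 931 (47.2%) lay inside a gene farther from its ends and 781 (39.6%) outside genes. Over all 89996 regions the gene-end share was 23.9%. Of the lost regions 163 (52.8%) were at a gene end, much as among shared regions (52%). The median distance to a gene end was 17353 bp for gained, 2276 bp for lost and 11935 bp for all regions. The peaks of the cut lists moved the same way as a whole, with 33.6 ± 0.108% at gene ends in LPS+Skatole against 36.2 ± 0.648% in DMSO libraries without overlap (two-sided exact permutation test, p = 0.1).

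**Figure D1:**
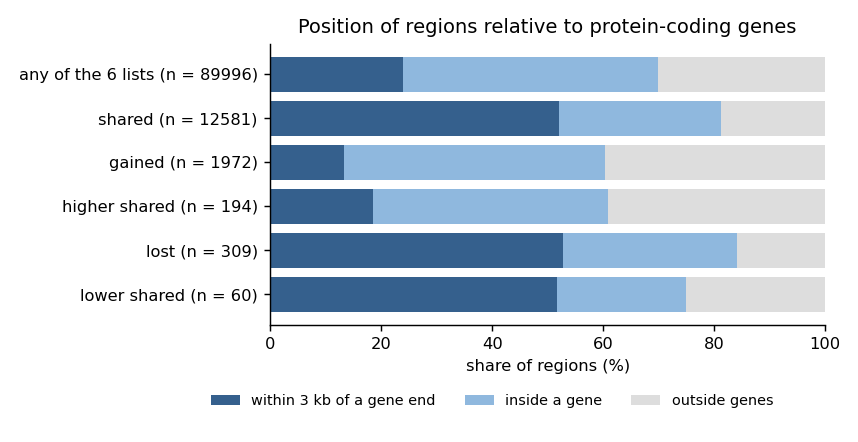
Horizontal bars give the share of regions (%) within 3 kb of a gene end, inside a gene or outside genes, for all regions of the 6 lists and for the shared, gained, rising, lost and falling regions. Gained and rising regions have the smallest gene-end shares (13.2% and 18.6%), and lost and falling regions have shares of 52.8% and 51.7%.

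The cut removed few DMSO peaks and many LPS+Skatole peaks, so the whole lists bear on the 2 sets unequally. No whole DMSO list had a peak in 1895 gained regions (96.1%), and 1 whole list had one in the other 77. In the longer whole LPS+Skatole lists 76 of the 309 lost regions (24.6%) had no peak and 70 (22.7%) had one in all 3. The rest of the lost regions had a weaker peak in at least 1 whole LPS+Skatole list. Selection in 2 libraries of each group was then read in the libraries left out, over 9 selections. Regions called in 2 of 2 LPS+Skatole and 0 of 2 DMSO lists reappeared in the omitted LPS+Skatole list in 64.6% of cases on average (63.4% to 66%) and were found in the omitted DMSO list in 22.7% (18.3% to 25.2%). For lost regions chosen in the same way the shares were 46.7% in the omitted DMSO list (42% to 49.9%) and 34.3% in the omitted LPS+Skatole list (32.3% to 37%).

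Most gained regions were also occupied in cells given LPS alone. Of the 1972 regions 682 (34.6%) had a peak in all 3 LPS lists of equal length and 318 (16.1%) in none, and the mean share per LPS list was 59.4 ± 1.09% (SD, n = 3). For lost regions this share was 44.8 ± 1.66%, and over all regions of the 6 lists it was 30.5 ± 0.236%. That base is not like for like, since gained and lost regions have a peak in 3 lists by rule. Of all regions 32238 had one in a single DMSO list only and 21104 in a single LPS+Skatole list only. Of the lost regions 54 (17.5%) had a peak in all 3 LPS lists and 83 (26.9%) in none. LPS peaks entered the merging of peaks into regions, but not the rule that chose gained and lost ones. The depth of the LPS lists (2.29 ± 0.0551) was close to that of the LPS+Skatole lists. No library of the series was given skatole without LPS, so the effect of skatole alone cannot be read.

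**Figure D2:**
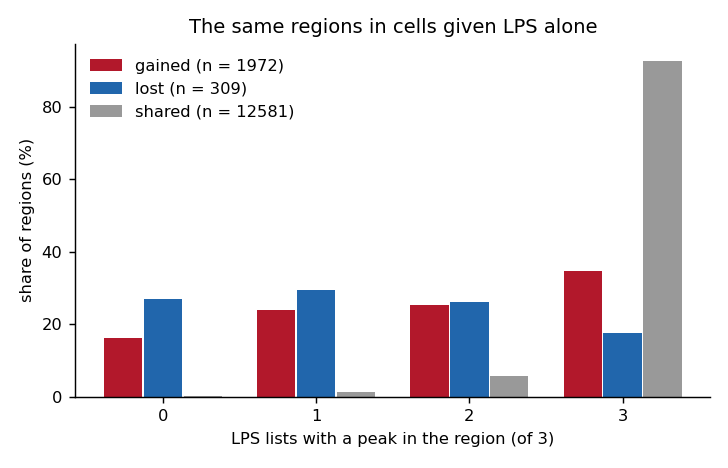
Bars give the share of gained, lost and shared regions (%) against the number of LPS lists with a peak in the region, from 0 to 3. Gained regions increase from 16.1% at 0 lists to 34.6% at 3, lost regions are spread between 17.5% and 29.4%, and 92.6% of shared regions have a peak in all 3.

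The strongest gained regions were also among the stronger peaks of LPS-treated cells, with 1 exception. The first by mean list percentile (100 is the strongest peak of a cut list) lay within Slc36a4, an amino acid transporter gene, at chr9:15714236-15715690. Its percentile was 93.9, 95.2 and 98.2 in LPS+Skatole libraries 1 to 3, with 135, 147 and 199 fragments at the summit, and no DMSO list had a peak. A region in Banp (chr8:122013031-122014421), the gene of a nuclear matrix-associated DNA-binding protein, stood at 97.6, 92 and 95. Both regions were also called in all 3 LPS lists, at 82.1 to 89.9 for Slc36a4 and 93 to 95.5 for Banp. One in Foxp1 (chr6:99050073-99052156), a forkhead transcription factor gene, stood at 92.7, 90.8 and 85. The region nearest to Fpr2, a formyl peptide receptor gene through which phagocytes sense bacterial peptides, lay 7060 bp outside it (chr17:17900463-17902454) at 95.8, 83.2 and 92.1. The rest of the 12 strongest lay within Sde2, Eif3b, Ubap1 and Golim4, 27320 bp from Bcas1, 198899 bp from Serp2, 6303 bp from Gnptab and 1236 bp from 1700012B09Rik. All 12 had a peak in 3 LPS lists, the lowest at Golim4 (6.56, 34.8 and 41.2 with LPS alone, 89.1 to 90.5 with both agents), and 11 had none in any whole DMSO list, the exception being the region near Gnptab with 1.

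Gained regions were at 1103 of the 15447 protein-coding genes with any region (7.14%). A gene counts as at a region when the middle summit lies in it or within 3 kb of it. The median length of these genes was 61077 bp against 23982 bp over all genes with a region, and a long gene has more room for a region. In 21 genes there were 3 or more gained regions, with a median length of 190139 bp. Lpp, Ppp1r12b and Rad51b had 4. Nfkb1, which encodes the p105 precursor of the p50 subunit, had 3 gained and 1 rising region among 20 regions over 107315 bp, and each of the 3 had a peak in all LPS lists. Smox (33326 bp), the gene of spermine oxidase, Slc25a37 (43697 bp), the gene of a mitochondrial iron importer, and Rab15 (24800 bp) reached 3 in much shorter genes. Tbxas1, the thromboxane synthase gene, Dock5, Arhgef3, Rptor, Gramd1b, Slc1a2, Rnf115, Ap1b1, Sdccag8, Slx4ip, Dlgap2, Rbfox1, Ttc39c and Gm16867 made up the rest.

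Regions occupied in all 6 libraries changed in rank at a small set of sites. Each shared region was ranked by −log10 p within its library and given a percentile among the 12581 shared regions, and the groups were compared with limma on normal scores of the ranks. At an adjusted p under 0.05, 194 regions rose (1.54%) and 60 fell (0.477%) in LPS+Skatole. All 254 were free of overlap between the groups, as were 1412 (11.2%) upward and 1351 (10.7%) downward of all shared regions. The rising regions had a median mean percentile of 30.0 in DMSO and 87.6 in LPS+Skatole, and the falling ones 87.6 in DMSO and 36.7 in LPS+Skatole. The median SD between libraries of a group was 12.1 percentile points in LPS+Skatole and 11.2 in DMSO. Shared regions near the top of every list can pass with a small change in percentile, and the smallest called shifts were 0.7 points upward and −0.4 downward. Of the 36 called regions named below by rule, 13 stayed past the threshold in each of the 6 fits that left out 1 library (Acod1, Gstp3, Rad23b, Arntl, Atp2b1, Rhov, Nfkb1, Anp32a, Sema7a, Atg4c, Jdp2, Ptma and the H3c15 locus). The calls at Nos2, Tnip2, Fth1 and Srpk1 were lost in all 6, and the rest held in 1 to 4.

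**Figure D3:**
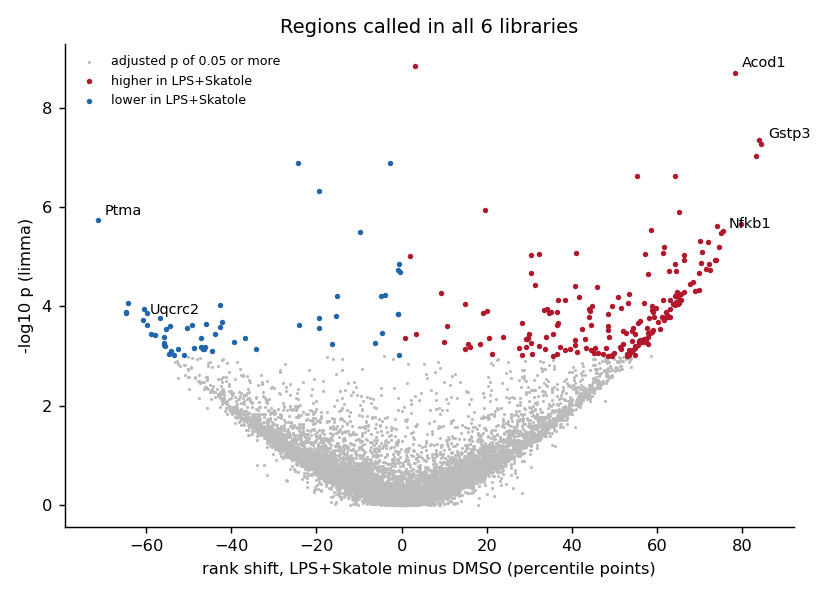
Each point is a shared region, with its shift in mean rank percentile (LPS+Skatole minus DMSO, percentile points) against −log10 of the unadjusted limma p, red for the 194 that rose and blue for the 60 that fell. Gstp3, Acod1 and Nfkb1 stand far to the right and Ptma and Uqcrc2 far to the left.

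Rising regions lay in distal sites, as the gained ones did, with 18.6% at a gene end and 39.2% outside genes. Their median summit count, a value recovered in part from the −log10 p that chose them and so a description only, was 137 in LPS+Skatole and 30 in DMSO libraries, against 80 and 41 over all shared regions. Falling regions had median counts of 122 and 116, with single regions higher or lower. Of these, 51.7% were at a gene end. The local background around them, as a multiple of the genome background, was 8.69 in LPS+Skatole and 5.82 in DMSO, against 1.17 and 1.18 over all shared regions. When regions were ranked by summit count alone, an order that ignores local background, 164 of the 194 rising and 35 of the 60 falling regions were still called in the same direction. The part of local background in the falls was not tested beyond this.

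Regions at Acod1 and in Rapgef2 tied for the smallest adjusted p. The one at Acod1 (chr14:103046129-103048712), whose product makes itaconate in activated macrophages, had its middle summit 46 bp from a gene end. Its percentile was 31.4, 9.6 and 21.1 in DMSO libraries 1 to 3 and 99.6, 99.6 and 98.0 in LPS+Skatole, with 37, 33 and 36 fragments at the summit against 368, 365 and 273. It rose by 78.3 points (3.31 ± 0.32 normal-score units, SE; limma, adjusted p = 1.23e-05). In cells given LPS alone it stood at 99.2, 99.7 and 99.4, overlapping the values with both agents.

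The largest shift was 1861 bp from Gstp3, the gene of a glutathione S-transferase (chr19:4057195-4063818). It stood at 5.5, 20.4 and 9.6 in DMSO and 94.3, 95.7 and 98.3 in LPS+Skatole libraries, a rise of 84.3 points (3.05 ± 0.36, SE; limma, adjusted p = 0.000165). The LPS libraries held it at 87.3 to 96.3. A region within Nfkb1 (chr3:135669320-135671256) stood at 4.3, 24.8 and 18.3 in DMSO and 92.9, 94.7 and 84.8 in LPS+Skatole (limma, adjusted p = 0.0022), and at 79.1 to 89.6 with LPS alone. No value of one group overlapped the other at any of these 3 sites.

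A distal region 98190 bp from Rad23b (chr4:55250741-55254200) went from 0.4, 0.1 and 0.5 in DMSO to 79.3, 82.3 and 91.4 in LPS+Skatole (limma, adjusted p = 0.000165), and the LPS libraries lay between them at 32.1 to 51.0. One 44350 bp from Arntl, the gene of a core circadian clock factor (chr7:113132008-113135478), rose by 83.1 points (limma, adjusted p = 0.000234), with LPS at 97.1 to 97.4. A region in Atp2b1, a plasma membrane calcium pump gene (chr10:98941874-98947251), rose by 79.6 points, and one 6015 bp from Rhov, the gene of an atypical small GTPase (chr2:119262919-119264408), by 75.5 points. At both the LPS libraries were lower than every LPS+Skatole library. Regions in Anp32a and Sema7a rose by 74.6 and 74.0 points, and one 20264 bp from Atg4c by 73.9.

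The largest fall lay outside genes. A region 22406 bp from Ptma, the prothymosin alpha gene (chr1:86503147-86505279), stood at 95.7, 89.9 and 92.7 in DMSO and 14.8, 22.5 and 27.2 in LPS+Skatole libraries, a fall of 71.3 points (limma, adjusted p = 0.00177). Its summit counts were 157, 177 and 191 in DMSO and 142, 152 and 141 in LPS+Skatole, and its local background was 9.67 to 13.8 times the genome background in DMSO and 13.5 to 18.7 times in LPS+Skatole. At Uqcrc2, a subunit gene of respiratory complex III (chr7:120634606-120635730), the middle summit lay 19 bp from a gene end. The percentile was 85.8, 62.4 and 88.0 in DMSO and 17.7, 22.6 and 13.8 in LPS+Skatole (limma, adjusted p = 0.0191), and the counts were 67, 55 and 88 against 52, 60 and 51. The LPS libraries stood at 15.1, 36.2 and 53.3.

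Regions in Rnf220, Lcp2, which encodes the adaptor SLP-76, and Osbpl11, at gene ends of the integrator subunit gene Ints3 and the splicing kinase gene Srpk1, and near Prss16 and BC005537 made up the remaining large falls with the histone locus described below. At Srpk1, Osbpl11 and BC005537 the local background was 0.999 to 1 times the genome background in all 6 libraries, and the counts in LPS+Skatole were 26 to 48 against 38 to 79 in DMSO. At Prss16 the local background was 15.4 times the genome background in each LPS+Skatole library and 3.78 to 3.83 times in DMSO, and the mean count rank differed by −6.5 points. At Ints3 the local background was 32.2 to 35.8 times against 15.8 to 16 times, and the count rank differed by −1.6 points.

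**Figure D4:**
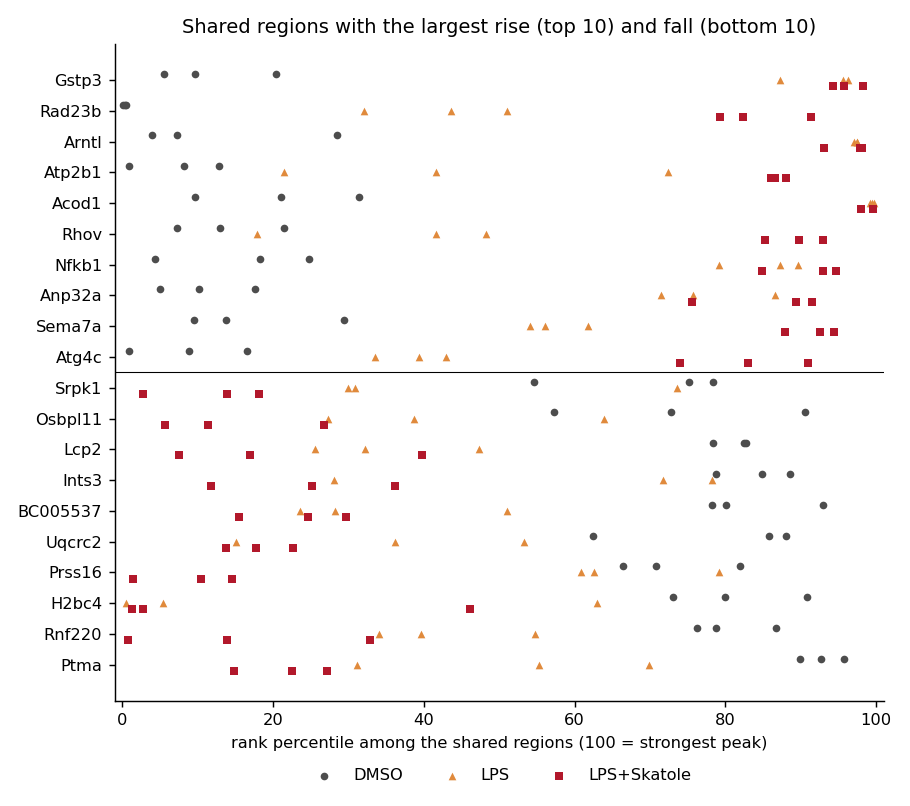
For the 10 shared regions with the largest rise and the 10 with the largest fall, the rank percentile among shared regions is plotted for every DMSO, LPS and LPS+Skatole library, with regions named by their gene or nearest gene. DMSO and LPS+Skatole points do not overlap in any row, and the LPS points lie beside LPS+Skatole at Acod1, Arntl and Gstp3 and between the groups at Rad23b and Atg4c.

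With LPS alone the rising regions already stood closer to LPS+Skatole than to DMSO. Among the 190 of 194 with a peak in all 3 LPS lists, 144 had an LPS mean nearer to the LPS+Skatole mean and 46 nearer to the DMSO mean. The median position of LPS along the shift was 0.756, where 0 is DMSO and 1 is LPS+Skatole. Among 54 of the falling regions it was 0.566, with 30 nearer to LPS+Skatole and 24 nearer to DMSO. These positions are a description, since the regions were chosen on the groups at both ends.

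All gene lists were chosen with earlier results of these data known, so their shares are a description. Genes of the NF-κB list were read first. Of 20 genes for NF-κB subunits and IκB or A20 feedback with a region, 3 (15%) were at a gained region (Nfkb1, Tnip3 and Otulin), against 7.14% of all genes. Of 19 with a shared region, 3 (15.8%) were at a rising one (Nfkb1, Tnip1 and Tnip2), against 122 of 8640 genes (1.41%). None was at a lost or falling region, against 2.08% and 0.671% of all genes. At an unadjusted p under 0.05, 6 of 19 had a region higher and 2 one lower (limma), against 747 and 1091 of 8640 genes. The median shift of the strongest shared region per gene was −1.17 points, with 9 above and 10 below 0, and −3.24 over all genes. Nfkbil1, an IκB-like gene outside the list, was at a lost region that still had a peak in all 3 whole LPS+Skatole lists. Tnip1, Tnip2 and Tnip3 encode A20-binding inhibitors of NF-κB, and Otulin removes the linear ubiquitin chains on which the pathway depends. The region in Tnip2 (chr5:34500155-34503052) rose from 26.6, 42.4 and 25.3 to 89.2, 82.5 and 81.1 (limma, adjusted p = 0.0278). The one in Tnip1 (chr11:54932207-54937245) rose from 57.1, 72.0 and 53.9 to 97.4, 81.5 and 96.0 (limma, adjusted p = 0.0472). At Tnip3 (chr6:65591745-65593022) the 3 LPS+Skatole lists had 72, 78 and 88 fragments at the summit, and no DMSO or LPS list of equal length had a peak.

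Upstream, 3 of 23 genes of the LPS receptor and Toll-like receptor signalling were at gained regions (13%, against 7.14% of all genes). These were Irak3, which encodes an inhibitory kinase of the pathway, Irak4, its proximal kinase, and Tab2, an adaptor of the kinase Tak1. None of the 14 with a shared region passed the limma test after adjustment, and 3 had one higher and 1 had one lower at an unadjusted p under 0.05, against 747 and 1091 of 8640 genes. Of 39 genes of the MAPK cascade and AP-1 or ATF factors, 6 were at gained regions (15.4%, against 7.14%), namely Map2k1, Map2k4, Map3k5, Mapk13, Batf and Atf6, and none at a lost one. Of 28 with a shared region 3 had one higher and 7 one lower at an unadjusted p under 0.05 (limma). Over all genes these counts were 747 and 1091 of 8640. The median shift of the list was −3.74 points against −3.24 over all genes. The region 2508 bp from Jdp2 (chr12:85593084-85596766), the gene of an AP-1 repressor, rose from 16.3, 35.5 and 12.8 in DMSO to 91.9, 92.5 and 90.1 in LPS+Skatole libraries (limma, adjusted p = 0.00298), and LPS alone held it at 87.7 to 92.9.

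Among the secreted targets, 2 of 24 interleukin, Tnf and colony-stimulating factor genes (8.33%) and 2 of 13 chemokine genes (15.4%) were at gained regions, against 7.14% of all genes, so the first share was near the background. At Il6 the region (chr5:30012490-30013499) covered the promoter printed above, with its summit 172 bp before the start. It held 30, 29 and 31 fragments at the summit in the LPS+Skatole libraries, at list percentiles of 34.9, 18.9 and 20.2, and no DMSO list had a peak. LPS libraries 1 and 3 had one at 50 and 3.86. Ccl5, the gene of the chemokine RANTES, had a gained region 2303 bp from a gene end (chr11:83527319-83528807) with 27, 36 and 58 fragments, also present in all 3 LPS lists. Il16 and Cx3cl1 had gained regions that no LPS list shared, and Cxcl16 was at a lost region (1 of 13, 7.69%, against 2.08% of all genes) that still had a peak in all 3 whole LPS+Skatole lists. No gene of either list had a rising or falling region within 3 kb after adjustment (limma). At an unadjusted p under 0.05, 2 of 13 cytokine and 3 of 6 chemokine genes had one higher, and 1 and 0 one lower, against 747 and 1091 of 8640 genes. A wide region that overlapped the promoter of the chemokine gene Cxcl2 (chr5:90895794-90905801), named after its values were seen, had its middle summit 5103 bp before the start. It rose from 5.4, 20.4 and 43.6 in DMSO to 76.6, 82.9 and 85.7 in LPS+Skatole (limma, adjusted p = 0.0265), with LPS alone at 60.6 to 84.6.

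Among effector enzymes of macrophages Acod1 and Nos2 rose, 2 of 14 with a shared region (14.3%, against 1.41% of all genes), and 3 of 21 were at gained regions (14.3%, against 7.14%). At Nos2, the inducible nitric oxide synthase gene (chr11:78918466-78923428), the summit lay 87 bp from a gene end, and the percentile was 23.5, 12.2 and 20.3 in DMSO and 74.1, 72.1 and 71.9 in LPS+Skatole (limma, adjusted p = 0.0415). With LPS alone it stood at 84.3, 94.1 and 89.6, above each LPS+Skatole library. Ptges, the gene of a prostaglandin E synthase, held 2 gained regions, and the one at chr2:30924749-30925505 had 225, 143 and 146 fragments at the summit. Sod2, the mitochondrial superoxide dismutase gene, had 148, 151 and 124 at its gained region. The median shift over the list was 18.81 points, with 11 of 14 genes above 0, against 3284 of 8640 over all genes.

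Several genes of the Nrf2 and glutathione list were at gained regions. Nrf2 is the transcription factor of the antioxidant response, and its targets make and use glutathione. Of 60 genes with a region 11 (18.3%) were at a gained region, against 7.14% of all genes, and 0 at a lost one. The members at gained regions cover glutathione synthesis and cystine import (Gss, Slc7a11), glutathione transfer (Gsta2, Gstm1, Gstm4), peroxide removal (Prdx1, Srxn1, Cat), quinone reduction (Nqo1), NADPH supply (Me1) and spermine synthesis (Sms). The median gene length of this list was 14690 bp, below the 17169 bp of all protein-coding genes. Other lists held longer genes, among them NF-κB (25401 bp), survival (22003 bp), glycolysis (22829 bp) and inflammasome (34193 bp).

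At Gss, which encodes glutathione synthetase, the middle summit lay 43 bp from a gene end (chr2:155562582-155564121), with 39, 47 and 36 fragments at the summit in LPS+Skatole libraries and a peak in 2 LPS lists. At Nqo1 it lay 160 bp before the start (chr8:107403174-107403786), with 47, 40 and 42 fragments. Gsta2 (chr9:78347766-78349460) had 61, 49 and 64 and Gstm4 (chr3:108046129-108048022) 54, 26 and 35. These last 3 regions had no peak in any LPS list of equal length. Genes of the Gstm and Gstp clusters are close copies of each other, and reads that map to more than 1 copy make their values uncertain.

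Of 39 genes of this list with a shared region, Gstp3, Srxn1 and Fth1 rose (7.69%, against 1.41%) and none fell. The region over the Srxn1 promoter (chr2:152104356-152105995) went from 81.9, 62.1 and 51.1 in DMSO to 96.5, 95.7 and 92.8 in LPS+Skatole (limma, adjusted p = 0.0281), with LPS alone at 80.4 to 85.1. Fth1, the ferritin heavy chain gene, lay in a wide region near the top of every list (chr19:9972156-9987656), which rose by 3.3 points from 97.1, 96.1 and 94.7 to 99.5, 99.3 and 99.0 (limma, adjusted p = 0.0281). The median shift over the 39 genes was 1.69 points.

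Over all genes 7.14% were at gained and 2.08% at lost regions. Glycolysis and Hif1a had 6 of 25 genes at gained regions (24%: Hif1a, Gpi1, Pfkp, Pfkfb3, Aldoa and Pgam1) and 2 at lost ones (Gapdh and Pgam1). No shared region of this list passed limma after adjustment, and 5 of 20 genes had one higher and 2 one lower at an unadjusted p under 0.05, against 747 and 1091 of 8640 genes. Whole LPS+Skatole lists still had a peak in the lost regions, 2 lists at Gapdh and 1 at Pgam1. Actin cytoskeleton and adhesion genes had 11 of 47 at gained regions (23.4%), among them Rac1, Vcl, Itgam, Cd44 and the Rac activators Dock1, Dock2, Dock4 and Dock10, and 4 at lost ones. The median length of that list was 81152 bp. Survival and TRAF genes had 5 of 30 (16.7%), and Bcl2l1, which encodes the anti-apoptotic Bcl-xL, had both a gained region and a rising one (chr2:152805560-152807375) that went from 1.0, 5.3 and 20.9 to 53.5, 91.3 and 78.2 (limma, adjusted p = 0.0136).

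Of 27 genes for brakes on cytokine signalling 3 were at gained regions (11.1%, against 7.14% of all genes: Cish, Dusp2 and Rc3h2) and 2 at lost ones (7.41%, against 2.08% of all genes: Spred1 and Spred2), and the region at Zfp36, whose product destabilizes cytokine mRNAs, rose by 20.1 points (limma, adjusted p = 0.0157). Inflammasome genes had 3 of 22 at gained regions (Aim2, Nek7 and Panx1, 13.6%, against 7.14%). Macrophage lineage factors had 4 of 35 (Runx2, Mitf, Bhlhe41 and Rxra, 11.4%, against 7.14%), and within that list the region in Runx1 rose by 16.1 points (limma, adjusted p = 0.0398) and one 162 bp from a gene end of Id2 fell by 19.4 (limma, adjusted p = 0.018). Among the brakes and among the lineage factors 1 gene each was thus at a rising region (4.55% of 22 and 4.35% of 23, against 1.41% of all genes), and 1 lineage factor was at a falling one (4.35%, against 0.671%).

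Some lists had a share at gained regions near the background of 7.14%, which is no result about their members. Interferon-stimulated genes had 2 of 33 (6.06%), the aryl hydrocarbon receptor pathway, through which cells sense indoles and dioxins, 1 of 17 (5.88%, Nqo1) and alternative activation with Stat6 1 of 19 (5.26%, Cish). None of 9 aryl hydrocarbon receptor genes with a shared region passed limma after adjustment, and at an unadjusted p under 0.05 there were 0 higher and 2 lower, against 747 and 1091 of 8640 genes. Shared regions of the interferon list had a median shift of 10.09 points against −3.24 over all genes, with 6 of 21 genes higher and 0 lower at an unadjusted p under 0.05 (limma). Ifi35 was at a lost region, 1 of 33 genes (3.03%, against 2.08% of all genes). Isg20 was at a rising region after adjustment, 1 of 21 genes (4.76%, against 1.41%). That region (chr7:78912397-78915374) went from 14.6, 3.2 and 15.0 in DMSO to 71.2, 83.5 and 62.2 in LPS+Skatole libraries (limma, adjusted p = 0.018). With LPS alone it had a peak in 2 lists, at 4.8 and 5.6. Its summit counts were 16, 14 and 20 in DMSO, 82 and 60 in those LPS lists and 85, 105 and 76 in LPS+Skatole, so LPS lay with DMSO by rank and with LPS+Skatole by fragments. This is the region over the promoter printed above.

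**Figure D5:**
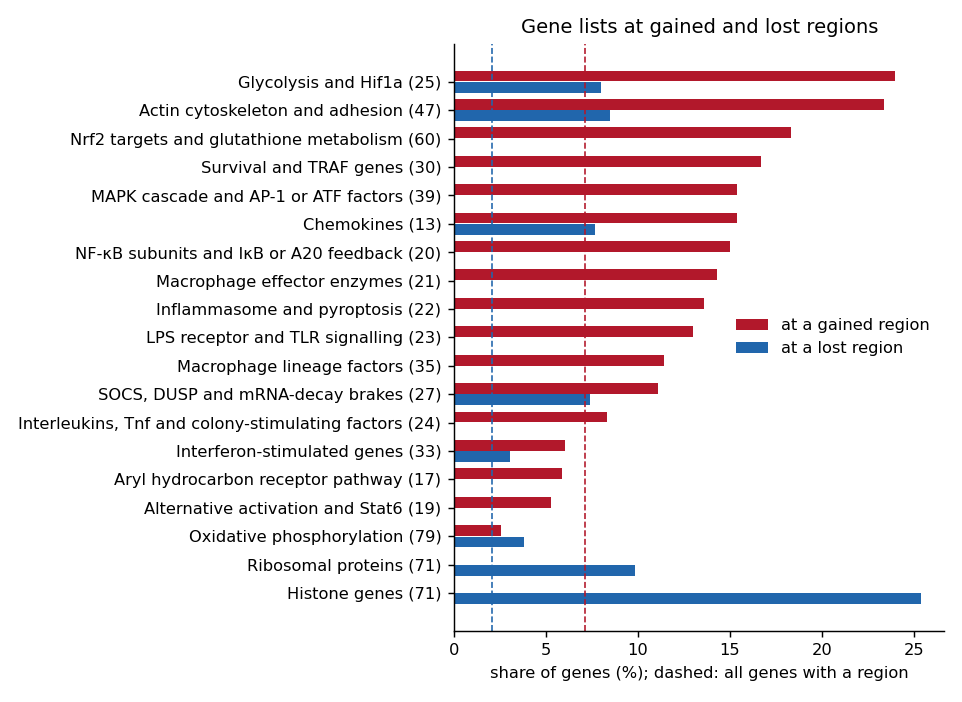
Bars give the share (%) of the genes of each list with a region, in brackets, that were at a gained (red) or lost (blue) region, and dashed lines give the same over all genes (7.14% and 2.08%). The Nrf2 and glutathione list stands at 18.3% gained and 0 lost, and ribosomal proteins at 0 gained and 9.86% lost. Histone genes, a list chosen after the values were seen, stand at 0 gained and 25.4% lost. The other lists were chosen with earlier results of these data known. Shares are not adjusted for gene length.

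Lost regions were at 322 of 15447 genes (2.08%) and falling regions at 58 of 8640 (0.671%). Ribosomal protein genes, which encode the structural parts of the ribosome, were among those at lost regions. Of 71 ribosomal protein genes with a region, 7 (9.86%, against 2.08% of all genes) were at a lost region (among them Rpl7a, Rpl27, Rpl30, Rpl35a and Rps3). At a gained region there were 0, against 7.14% of all genes. The median gene length of this list was 3206 bp, against 17169 bp over all protein-coding genes. The part of gene length in its gained share was not tested. The strongest shared region had a shift below 0 for 44 of 53 of these genes, with a median of −9.72 points against −3.24 over all genes. None passed limma after adjustment, and 16 had a region lower and 0 one higher at an unadjusted p under 0.05, against 1091 and 747 of 8640 genes. The median over these genes was 81.8, 83.3 and 80.5 in DMSO and 64.6, 67.7 and 65.3 in LPS+Skatole libraries, without overlap. At Rpl7a (chr2:26914038-26916127) DMSO libraries had 23, 35 and 36 fragments at the summit, and 2 LPS lists of equal length had a peak. Whole LPS+Skatole lists still had a peak in the lost regions, 3 lists at Rpl7a, 2 at Rpl30, 1 each at Rpl27 and Rps3 and 0 at Rpl35a. The region at Rpl27 also lies within 3 kb of Ifi35 and counts for both genes.

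For oxidative phosphorylation the counts were smaller. Of 79 genes 3 (3.8%, against 2.08% of all genes) were at a lost region, namely Sdha, Cox11 and Atp5a1, and 2 (2.53%, against 7.14%) at a gained one, Ndufa9 and Cox15. These genes were also short, with a median length of 7495 bp against 17169 bp over all protein-coding genes. The lost regions still had a peak in 3, 3 and 2 whole LPS+Skatole lists. Uqcrc2 fell, 1 of 56 genes with a shared region (1.79%, against 0.671% of all genes), and none rose (against 1.41%). Before adjustment 3 of 56 were higher and 9 lower at p under 0.05 (limma), against 747 and 1091 of 8640 genes. The median shift of the list was −8.62 points, with 43 of 56 genes below 0, against 5355 of 8640 over all genes. At Sdha, the gene of the catalytic subunit of complex II (chr13:74350020-74350942), DMSO libraries had 37, 46 and 47 fragments at a summit 10 bp from a gene end.

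Histone genes, which supply the proteins that package new DNA, had the highest share at lost regions of the lists shown. They were made into a list after the values had been seen and are given as a description. Of 71 with a region 18 (25.4%, against 2.08% of all genes) were at a lost region and 0 at a gained one (7.14% of all genes). In whole lists these counts were 10 and 2, and without LPS+Skatole library 1 the lost count was 28. Of 40 with a shared region 9 (22.5%, against 0.671%) were at a falling one. Since histone genes lie in dense clusters, the 18 genes share 12 lost regions, 10 of them on chromosome 13 and 1 on chromosome 3, and the 9 genes share 4 falling regions. Of the 25 shared regions at histone genes 24 shifted down, by a median of 27.1 points against 1.01 over all shared regions, and in 12 every LPS+Skatole library was under every DMSO library. The median over the 25 regions was 80.0, 75.9 and 64.4 in DMSO, 53.5, 38.5 and 42.3 in LPS+Skatole and 47.1, 60.4 and 40.6 in LPS libraries.

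At the H3c15 and H2ac19 locus (chr3:96236640-96241063) the percentile was 99.2, 99.5 and 99.3 in DMSO and 80.6, 63.2 and 81.3 in LPS+Skatole (limma, adjusted p = 0.000234), and 95.6 to 97.1 with LPS alone. Its summit counts were 361, 504 and 450 against 392, 323 and 405. The H2bc4 and H2ac6 locus (chr13:23682265-23685789) went from 80.0, 90.8 and 73.1 to 46.1, 2.7 and 1.3 (limma, adjusted p = 0.016), with counts of 80, 133 and 89 in DMSO and 112, 132 and 132 in LPS+Skatole. There the local background was 5.81 to 5.89 times the genome background in DMSO and 5.76, 23.7 and 23.7 times in LPS+Skatole libraries, and the 2 lowest percentiles were in the libraries at 23.7.

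At the shared histone regions the median local background was 6.09 times the genome background in LPS+Skatole and 10.2 times in DMSO libraries. The count rank of all 25 was lower in LPS+Skatole, by a median of 13.6 points. At H3c4 and H2bc7 (chr13:23573244-23576129) the percentile went from 86.2, 69.0 and 49.3 to 3.1, 38.5 and 2.7 (limma, adjusted p = 0.0479). Near-identical histone copies share reads, so the division between loci is uncertain. Lost regions over promoters included those of H2bc12 and H2ac12 (chr13:22035007-22036002; 99, 140 and 126 fragments in DMSO) and of H3c6 (chr13:23562292-23563895; 99, 99 and 108), printed above. The one at H3c6 still had a peak in all 3 whole LPS+Skatole lists and the one at H2bc12 in none.

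The 3 lost regions of highest percentile were far from genes and very deep. One 32149 bp from Eea1 (chr10:96077622-96077879) had 7779, 8876 and 8574 fragments at the summit in DMSO and no peak in any LPS list of equal length or whole LPS+Skatole list. The others, 21276 bp from Ly6c2 and 116643 bp from Vmn1r238, held 867 to 1338 and 741 to 945, and were still called in 2 whole LPS+Skatole lists and 3 LPS lists. Others of the 12 strongest lay at gene ends of Chst12, Gas2l1, Adck5, Gm4832, Arrb1, Spg11 and the H3c7 locus, and 27777 bp from Cdrt4. Arrb1, which encodes beta-arrestin 1, and Gas2l1 had a peak in all 3 whole LPS+Skatole lists, as did Chst12, Gm4832 and Spg11.

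Promoters under the called regions were searched for the motifs named above. The promoter table gave 21263 promoters of 17492 of the 21887 protein-coding genes, and both strands were searched. Gained regions overlapped 58 promoters, of which 11 (19%) held the AP-1 motif TGANTCA, against 6.99% of all promoters and 4.42% of those under a shared region. Among 96 promoters at lost regions 1 held it (1.04%) and among 39 at falling regions 0. The κB consensus was in 8 of the 58 (13.8%), in 3 of 18 at rising regions (16.7%), in 9 of 96 at lost (9.38%) and in 7 of 39 at falling regions (17.9%), against 9.25% of all. The antioxidant response core TGACNNNGC was in 10 of 58 (17.2%) and 5 of 18 (27.8%), against 13% of all promoters, 15% of those under a shared region, 9.38% at lost and 12.8% at falling regions. CCAAT was in 51% at lost and 59% at falling regions, against 38.2% of all, 41.3% under shared regions and 37.9% at gained ones. Histone promoters are part of both shares, such as H3c4, H2bc7 and H2ac7 under 1 falling region and H2bc12 and H3c6 at lost ones. Promoters of 1 gene can overlap each other, and a match describes the letters of this window, not a bound site. Regions without a listed promoter were not searched.

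Il1b, Gstp1 and Ndufa3 were read whatever their values. The shared region 2322 bp from a gene end of Il1b (chr2:129372845-129374173) stood at 54.1, 10.8 and 23.8 in DMSO and 38.4, 27.0 and 75.6 in LPS+Skatole libraries, with overlap (shift 17.4 points; limma, adjusted p = 0.593). A second one, 40 bp from a gene end (chr2:129370440-129371603), was called in 2 LPS+Skatole, 2 LPS and 0 DMSO lists. At Ndufa3, a complex I subunit gene (chr7:3616327-3618404), the percentile was 63.1, 76.5 and 69.1 in DMSO and 84.7, 75.6 and 52.4 in LPS+Skatole (shift 1.3 points; limma, adjusted p = 0.944). At Gstp1 a region 246 bp from a gene end (chr19:4036789-4038594) was called in 3 LPS+Skatole, 3 LPS and 1 DMSO lists and was not gained because of a peak of 12 fragments in DMSO library 2.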

How the data were processed

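CUT&Tag peak lists of 9 libraries were used, and the members and gene lists were chosen with earlier results of these data known. The authors called peaks per library and deposited, for each peak, a score (the whole part of 10 times −log10 p), a fold (the ratio of the summit to its local background), −log10 p and −log10 q, all above a −log10 p of 5. The caller was not given in the sources used here, and the submitters' processing notes name mm10. Summit counts and backgrounds were recovered from the fold and −log10 p of the deposited lists and came out whole, within 0.1, for at least 99.99% of peaks. Lists were cut to 37551 peaks by −log10 p, and peaks overlapping by at least 1 bp were merged. Shared regions were tested with limma 3.58.1 (R 4.3.3; normal scores of ranks, trended eBayes, Benjamini-Hochberg over 12581 regions). The scripts were tested on simulated data. Genes came from a RefSeq table of GRCm38.p6 without strand, so distance was taken to either gene end. Of 664 list genes 659 matched. Named were the 12 strongest gained and lost regions, the 10 largest called shifts per direction, at most 6 list genes at called regions per list, genes at 3 or more gained regions, and Il1b, Gstp1 and Ndufa3; further list genes, Olr1, Cxcl2 and the histone genes were named after their values were seen. Alternatives were other cuts, thresholds, region definitions, thinning to the lowest background, other ranks and leaving out each library. A few named genes that the rule selects are not reported here.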

Additional observations from a re-analysis of the deposited data

How the results depend on the processing

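No group difference or named shift reversed under the alternatives that gave it a value. The group differences and called named shifts were free of overlap, so leaving out 1 library could hardly reverse them. With ranks by summit count the limma effect took the other sign in 1 of 194 rising and 3 of 60 falling regions (by mean count percentile, 1 and 2). The counts depended on how the lists were cut; the cause was not tested. Gained regions numbered 4340 in whole lists, 4364 at a −log10 p threshold of 10 without a cut and 1033 in the top 20000 peaks, and genes at them 2219, 2266 and 603. Lost regions numbered 80 in whole lists, 51 at the threshold of 10, 591 when lists were cut by fold, 497 with regions from summits widened by 250 bp and 76 when absence from the whole lists was also asked, and genes at them 85, 52, 594 and 493 in the first 4 of these. Leaving out 1 library, which relaxes the rule to 2 of 2, gave 2511 to 3236 gained and 535 to 858 lost regions, and 1389 to 1764 and 532 to 752 genes. After thinning to the lowest background, 76% of gained and 72.2% of lost regions were called again. In whole lists the mean share per LPS list at gained regions was 55.7% and the share in the left-out LPS+Skatole library 60.1%. With log2 fold in place of ranks limma called 67 rising and 10 falling regions, and each of the 254 kept its direction. Leaving out each library gave 66 to 128 and 13 to 55. Direction is little check in those fits, since the groups did not overlap at any of the 254. The fewest were called without LPS+Skatole library 3 (66 rising) and without DMSO library 1 or 2 (13 falling); of the 36 named calls 21 were lost with log2 fold and 13 held in every fit without 1 library. Library numbers did not pair the samples (correlations of deviations 0.0030, 0.0019 and 0.0063), and with a replicate block 190 rose and 58 fell. Ratios of peaks per library stayed at 1.46 (thinned) to 2.03. The Blank library was not analysed here, so binding without antibody was not subtracted, and summit counts cover counting error only.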
